A study of Mus musculus with 3 samples.

Results

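The genes described here are 49 DNA replication genes, chosen by symbol. They have roles in origin licensing, the replication fork, nucleotide supply and the entry into S phase, and some were chosen as E2F targets. They are 49 of the 23238 gene symbols in the count files. All 49 reached a CPM (counts scaled to library size) of 1 in at least 1 library, as did 13169 genes in all, which served as the background.

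RNA was sequenced from c2c12 cells, an immortalised mouse myoblast line that leaves the cell cycle and fuses into myotubes when serum is withdrawn. All cells were in induction medium with horse serum, for 2 days, and differed in the substrate beneath them. The substrates were a tissue culture plate (TCP), a hydrogel of methacrylated gelatin (GelMA), and 15% GelMA carrying 1% poly(sodium-4-styrenesulfonate) (GelMA-PSS), a negatively charged polymer that mimics heparin. Each substrate had 1 library, so that nothing below was tested, no difference can be set against the spread between replicates, and the intervals cover counting error only.

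Replication origins are licensed in G1, when the origin recognition complex, Cdc6 and Cdt1 load the ring-shaped MCM helicase onto DNA. Firing adds Cdc45 and the GINS complex to the helicase, after which primase and the replicative polymerases copy the strands, held to the template by the sliding clamp PCNA. Many of these genes are targets of E2F transcription factors, are induced as cells enter S phase, and are silenced when myoblasts exit the cell cycle to differentiate.

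The TCP, GelMA and GelMA-PSS libraries held 119799095, 87071144 and 192171443 counts, of which the replication genes took 0.133%, 0.153% and 0.162%. The muscle lineage was seen in all 3 libraries: 9 of 10 markers passed the level filter, and Mymk was not listed under that symbol. Desmin (Des), a muscle intermediate filament, stood at CPM 3299 on TCP, 2863 on GelMA and 3154 on GelMA-PSS. The muscle markers summed to CPM 26244, 19514 and 16611 in that order, with embryonic myosin heavy chain Myh3 at 10182, 6355 and 3037 and the early factor Myf5 at 13.9, 19.5 and 36.5. Myh3 and other abundant genes carried that sum: 6 of the 9 markers were higher on GelMA-PSS than on GelMA, and 3 of 9 higher than on TCP. The part of this difference in the values below was not tested. Of 5 markers each, 1 macrophage and leukocyte marker (Cd68), no endothelial marker, 2 epithelial markers (Cdh1 and Krt14) and no adipocyte marker passed the filter. The macrophage and leukocyte sum was CPM 1.53, 1.71 and 1.37 and the epithelial sum CPM 14.2, 10.7 and 8.20, and the adipocyte marker Lep had 0 counts in every library. In bulk RNA of this kind, more replicating cells and more replication mRNA per cell cannot be told apart.

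E2F sites are the best known shared feature of these promoters, so the 250 bases before the RefSeq start (GRCm38.p6) were searched on both strands for TTTCCCGC, TTTGGCGC, TTTCGCGC and TTTGCCGC. RefSeq windows were at hand for 40 of the 49 genes. At least 1 match was found in 9 of the 40 (22.5%), namely Orc1, Cdc6, Mcm5, Mcm6, Mcm7, Gins3, Rfc3, Pola1 and Uhrf1, against 3.83% of the 9861 background genes with a window. Being an E2F target was among the criteria for the set, so an excess of these matches was partly built into the choice of genes. A second motif of cell cycle promoters, TTTGAA, which is the core of the cell cycle genes homology region, was in 6 of 40 (15.0%) against 12.7%, so that it was about as common here as elsewhere. Of the promoters with a match, 4 that overlap no annotated exon are shown 5′ to 3′ with the matches in capitals.
Mcm6 chr1:128359706-128359955 (minus strand): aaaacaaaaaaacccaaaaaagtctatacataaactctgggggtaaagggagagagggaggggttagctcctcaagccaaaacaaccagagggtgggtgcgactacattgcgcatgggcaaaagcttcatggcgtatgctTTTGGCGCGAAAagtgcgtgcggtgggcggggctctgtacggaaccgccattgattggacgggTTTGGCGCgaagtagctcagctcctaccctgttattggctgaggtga
Uhrf1 chr17:56304063-56304312 (plus strand): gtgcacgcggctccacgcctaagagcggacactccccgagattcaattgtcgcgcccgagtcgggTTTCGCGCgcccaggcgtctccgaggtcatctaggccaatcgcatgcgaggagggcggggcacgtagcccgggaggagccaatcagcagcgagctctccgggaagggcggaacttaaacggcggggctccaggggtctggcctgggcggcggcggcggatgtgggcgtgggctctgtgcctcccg
Mcm5 chr8:75109259-75109508 (plus strand): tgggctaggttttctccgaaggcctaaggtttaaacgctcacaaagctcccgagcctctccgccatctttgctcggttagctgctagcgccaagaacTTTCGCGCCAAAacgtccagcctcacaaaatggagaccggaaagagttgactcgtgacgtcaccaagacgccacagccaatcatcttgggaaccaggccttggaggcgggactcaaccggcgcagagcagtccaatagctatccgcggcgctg
Pola1 chrX:93632156-93632405 (minus strand): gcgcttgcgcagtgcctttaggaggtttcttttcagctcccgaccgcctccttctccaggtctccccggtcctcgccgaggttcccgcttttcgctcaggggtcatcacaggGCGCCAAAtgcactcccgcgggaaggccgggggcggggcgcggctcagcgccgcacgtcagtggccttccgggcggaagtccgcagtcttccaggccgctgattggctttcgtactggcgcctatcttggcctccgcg
The Mcm6 window holds matches 110, 106 and 47 bases before the start, the first pair overlapping on opposite strands. In Mcm5 the matches at 153 and 149 bases overlap in the same way. Uhrf1 has a single match, 185 bases before the start, and Pola1 a single match on the opposite strand at 138 bases. The Uhrf1 window lies within the annotated span of the gene, whose first annotated start is further upstream, and the Mcm6, Mcm5 and Pola1 windows lie outside their genes.

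Replication genes were, as a group, higher on GelMA than on TCP and, relative to other genes, higher again on GelMA-PSS, by amounts that were mostly well under 2-fold. The median between the gels was above 0 on the TMM scale used below and with library totals alone. It was below 0 with values per transcript length and without TMM factors. A gene's own length cancels from its ratio in that setting, apart from the 1 added before logs. The setting therefore acts mainly by rescaling whole libraries and does not correct for length. The 3 comparisons that follow share libraries pairwise, and GelMA-PSS entered both comparisons with a control, so they are not separate observations of the same shift. Log2 ratios of single genes and the fold counts are on the scale log2(CPM + 1), which understates the ratios of low genes. Pole2, for example, was 2.07-fold higher in CPM on GelMA-PSS than on TCP and is not counted as 2-fold.

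Between GelMA and TCP, 41 of 49 genes were higher on GelMA, against 48.3% of all genes tested, and their median log2 ratio was 0.22, against -0.01 for all genes. Beyond counting error, 36 genes were higher (background 34.6%) and 3 (Orc2, Rrm1 and Rrm2) were lower (background 37.3%). None was 2-fold higher (background 0.706%) or 2-fold lower (background 0.296%), and 3 (Cdc6, Pole and Uhrf1) were 1.5-fold higher (background 3.50%).

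Between GelMA-PSS and GelMA, 41 of 49 were higher on GelMA-PSS, against 53.1% of all genes, with a median log2 ratio of 0.20 against 0.03. This direction depends on the scale: with values per transcript length and no TMM factors the median was -0.23, with 14 genes higher, while that of all genes was -0.37 and 37 of the 49 lay above it. The only gene 2-fold higher was Gmnn (background 1.77%), none was 2-fold lower (background 2.33%), and 10 were 1.5-fold higher (background 11.0%). Beyond counting error, 38 were higher (background 45.3%) and 7 were lower (background 40.2%), namely Orc1, Cdc6, Rfc1, Pola1, Pole, E2f2 and Chaf1a.

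Between GelMA-PSS and TCP, 47 of 49 were higher on GelMA-PSS, against 52.8%, with a median log2 ratio of 0.50 against 0.04. Only Rrm1 and E2f2 were lower on this scale. With values per transcript length and no TMM factors, 30 were higher and the median was 0.0937, while that of all genes was -0.32 and 45 lay above it. Beyond counting error, 45 were higher (background 46.4%) and 2 lower (background 41.2%). Gmnn, Gins2, Rpa3 and Dut were 2-fold higher (background 3.72%), of which Gins2 alone was past 2-fold after the correction for transcript length described below. None was 2-fold lower (background 3.13%), and 17 were 1.5-fold higher (background 13.2%).

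Set against both controls, 40 genes stood highest on GelMA-PSS (background 45.3%) and 1, E2f2, stood lowest (background 39.3%). The rising order from TCP through GelMA to GelMA-PSS was taken by 33 of 49 genes, against 22.5% of all genes. Another 7 genes peaked on GelMA with TCP lowest (Orc1, Cdc6, Mcm10, Rfc1, Pola1, Pole and Chaf1a). Once corrected for length, GelMA-PSS over GelMA was 0.19 in Mcm10 and 0.28 in Chaf1a. It was 0.03 in both Cdc6 and Rfc1, within the counting error of their ratios (± 0.13 and ± 0.05). In Orc1, Pola1 and Pole it stayed below 0. A further 7 had GelMA lowest and GelMA-PSS highest (Orc2, Orc6, Gins1, Rfc2, Rpa2, Rrm2 and Ccne2). Corrected, Orc6, Rrm2 and Ccne2 were instead lowest on GelMA-PSS. Their corrected ratios were -0.12, -0.16 and -0.05 over GelMA and -0.05, -0.20 and -0.03 over TCP. Orc2, Gins1 and Rfc2 stayed highest on GelMA-PSS, and Rpa2 was at -0.003 over GelMA. Rrm1 alone was highest on TCP and lowest on GelMA.

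**Figure D1:**
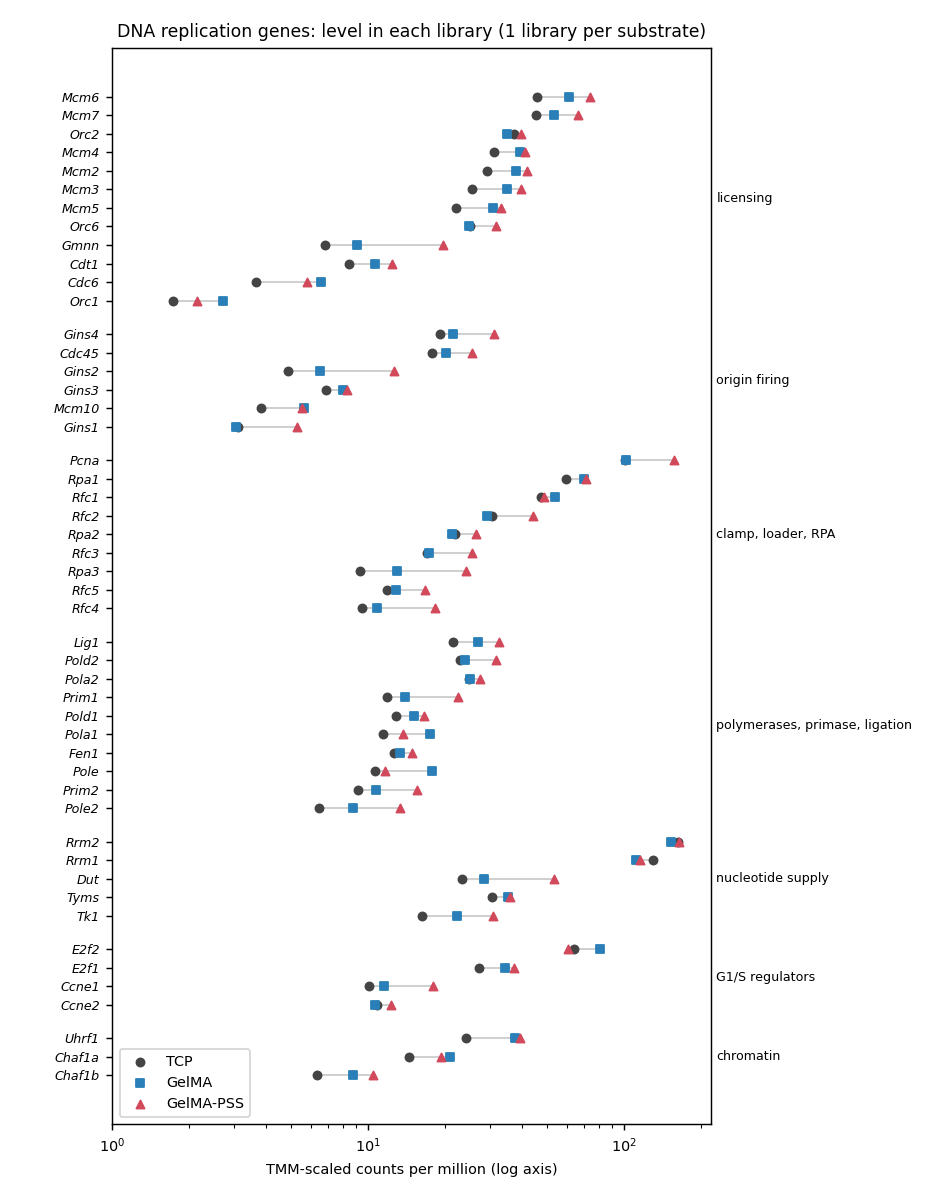
Level of each replication gene in the TCP, GelMA and GelMA-PSS libraries, as TMM-scaled CPM on a log axis, with genes grouped by role and each point a single library. GelMA-PSS is the rightmost point for 40 of 49 genes on this scale, and would be for 14 with values per transcript length and no TMM factors.

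The libraries also differed by transcript length, and this moves with the ratios of GelMA-PSS. Over 13060 genes with a length, the Spearman rho between length and log2 ratio was -0.67 for GelMA-PSS over GelMA, -0.52 for GelMA-PSS over TCP and 0.21 for GelMA over TCP. Among the 49 replication genes, which share these libraries, it was -0.75, -0.51 and 0.33. The lengths run from 670 bases in Rpa3 to 7163 in Pole. What gave rise to the length pattern was not tested.

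**Figure D2:**
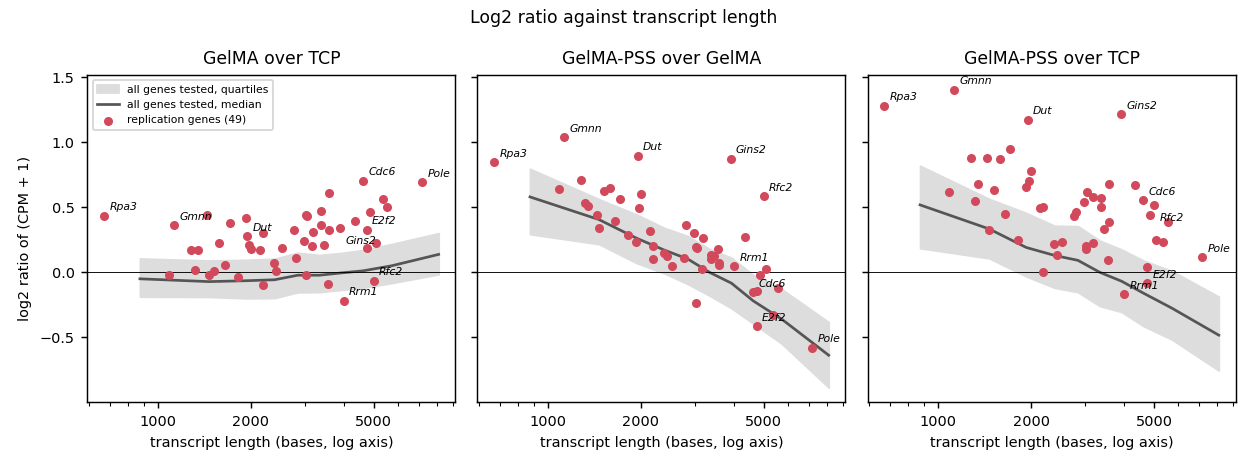
Log2 ratio of CPM + 1 against transcript length (log axis) for the replication genes (points) over the median and quartiles of all genes tested in 10 length bins. In both comparisons with GelMA-PSS the points slope down with length as the background does, and Gmnn, Gins2, Dut and Rfc2 lie above the quartile band.

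Each ratio was therefore also given after a loess correction for length and GC content, and is called corrected below. Corrected, 45 genes were higher on GelMA than on TCP (background 49.3%), 39 were higher on GelMA-PSS than on GelMA (background 49.7%) and 45 higher on GelMA-PSS than on TCP (background 49.7%). The corrected medians were 0.26, 0.11 and 0.44. GelMA-PSS was highest in 38 genes (background 40.2%), and the order TCP, GelMA, GelMA-PSS held in 36 (background 25.7%). The median of GelMA-PSS over GelMA was thus close to that of GelMA over TCP as counted, 0.20 against 0.22, and smaller when corrected. The correlation with length among the 49 genes was then 0.04 for GelMA-PSS over GelMA and 0.15 for GelMA-PSS over TCP.

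**Figure D3:**
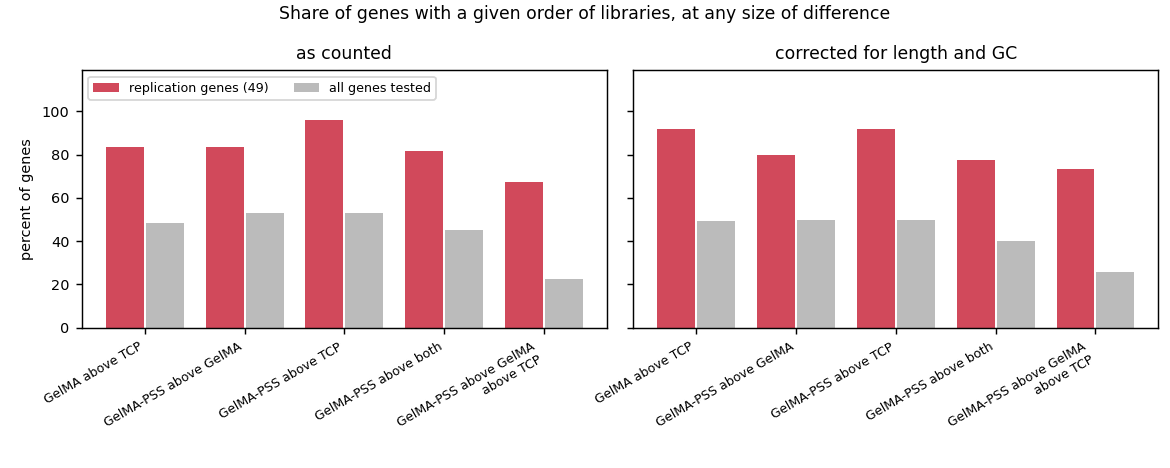
Percent of the 49 replication genes and of all genes tested that show each order of libraries, at any size of difference, as counted (left) and after the length and GC correction (right). The share of replication genes exceeds the background in every pair of bars, with 47 of 49 against 52.8% for GelMA-PSS above TCP as counted on the TMM scale.

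The licensing genes had median log2 ratios of 0.36 for GelMA over TCP, 0.18 for GelMA-PSS over GelMA and 0.52 for GelMA-PSS over TCP, with 10 of 12 highest on GelMA-PSS. The correction left these at 0.37, 0.12 and 0.53. The 6 subunits of the MCM2-7 helicase all took the order TCP, GelMA, GelMA-PSS. Mcm6 was at CPM 46.0 on TCP, 60.8 on GelMA and 73.7 on GelMA-PSS, Mcm7 at 45.2, 53.5 and 66.1, and Mcm5 at 22.0, 30.9 and 33.2. Mcm2 (29.2, 37.8 and 41.7), Mcm3 (25.5, 34.8 and 39.7) and Mcm4 (31.2, 39.4 and 41.0) showed the same gradient, with the smaller step between the gels. Their log2 ratios of GelMA-PSS over TCP ran from 0.38 in Mcm4 to 0.67 in Mcm6, and their corrected ratios from 0.36 to 0.76. Per kilobase of transcript, the level ran from CPM 6.50 in Mcm5 to 15.3 in Mcm7 on TCP and from 9.81 to 22.3 in the same genes on GelMA-PSS.

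Geminin (Gmnn), the protein that binds Cdt1 and blocks relicensing, had the highest ratio of GelMA-PSS over either control as counted. Its gene lies at chr13:24751845-24761923 (GRCm38, minus strand). Its CPM was 6.81 on TCP, 9.05 on GelMA and 19.6 on GelMA-PSS, and the counting intervals of the 3 libraries did not overlap. The log2 ratios were 1.04 ± 0.10 over GelMA and 1.40 ± 0.10 over TCP (95% counting interval), and 0.52 and 0.98 after correction. Cdt1 itself, the loading factor that geminin inhibits, was at CPM 8.43, 10.6 and 12.4. The ratio of Cdt1 to Gmnn CPM was accordingly 1.24 on TCP, 1.17 on GelMA and 0.629 on GelMA-PSS, and the log2 change of that ratio between GelMA-PSS and TCP went from -0.98 to -0.54 with the correction.

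The loading ATPases Orc1 and Cdc6 followed another order. Orc1, the subunit of the origin recognition complex that oscillates with the cycle, was at CPM 1.73, 2.72 and 2.15, and lowest of the set per kilobase in every library. Cdc6 was at 3.63, 6.55 and 5.80. Both were thus highest on GelMA, with log2 ratios over TCP of 0.44 ± 0.18 and 0.71 ± 0.15. After correction Orc1 was still lower on GelMA-PSS than on GelMA (-0.35), whereas Cdc6 was at 0.03. Orc2 (37.2, 35.0 and 39.7) and Orc6 (25.1, 24.7 and 31.6), other subunits of the complex, differed little between TCP and GelMA, and the 0.34 by which Orc6 was higher on GelMA-PSS than on GelMA became -0.12 with the correction.

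The genes of origin firing had medians of 0.18, 0.41 and 0.56, and 0.23, 0.08 and 0.32 when corrected, so the ratio of GelMA-PSS over GelMA was in most of them close to that of other transcripts of their length. Gins2 was the exception. This GINS subunit (chr8:120578633-120589304, minus strand) was at CPM 4.88 on TCP, 6.46 on GelMA and 12.7 on GelMA-PSS. The last of these was well apart from the others, with log2 ratios of 0.87 ± 0.11 over GelMA and 1.22 ± 0.11 over TCP, and 1.00 and 1.32 after correction. The correction used a 3900-base transcript for Gins2, and the value depends on that choice of transcript.

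The GINS complex contains its 4 subunits in equal numbers, yet their mRNAs did not keep a fixed ratio. Gins1 stood at 3.09, 3.04 and 5.28, Gins4 at 19.1, 21.6 and 31.1, and Gins3 at 6.87, 7.98 and 8.27. The log2 ratio of GelMA-PSS over GelMA was thus 0.64 in Gins1, 0.87 in Gins2, 0.05 in Gins3 and 0.51 in Gins4, and 0.07, 1.00, -0.14 and 0.07 after correction. Cdc45, the helicase partner of GINS, was at CPM 17.8, 20.2 and 25.5. Mcm10, needed to activate the helicase, was at 3.81, 5.63 and 5.53, a difference between the gels that lay within counting error.

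**Figure D4:**
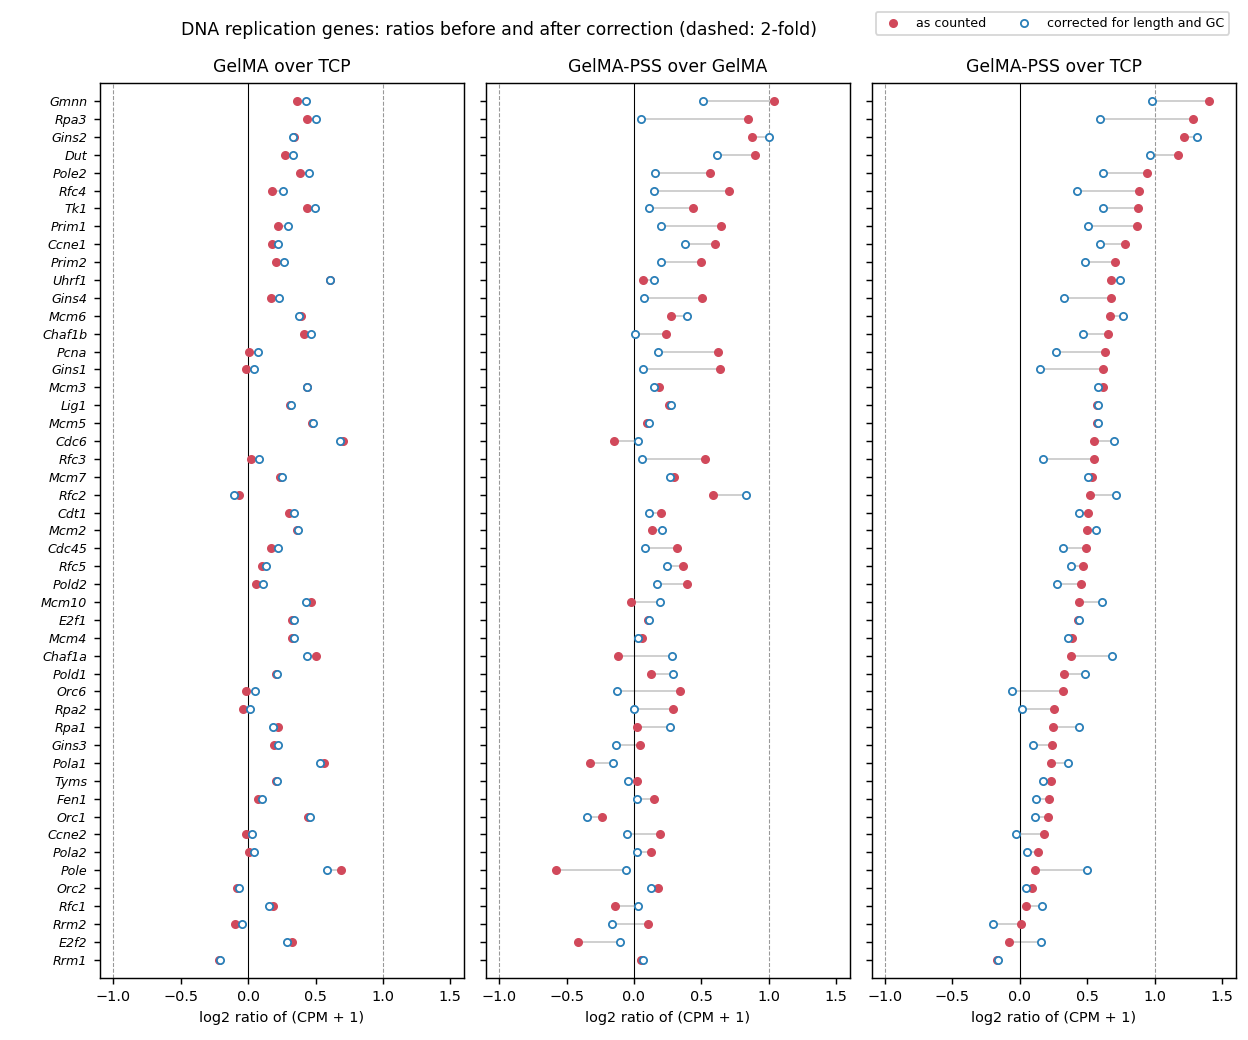
Log2 ratios of CPM + 1 for the 49 replication genes, as counted (filled) and after correction for transcript length and GC content (open), sorted by GelMA-PSS over TCP. The correction shifts short transcripts such as Rpa3 (0.85 to 0.05 for GelMA-PSS over GelMA) to the left and long transcripts such as Pole (-0.58 to -0.06) to the right.

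The clamp, clamp loader and single-strand binding genes had medians of 0.11 for GelMA over TCP, 0.53 for GelMA-PSS over GelMA and 0.52 for GelMA-PSS over TCP. The median between the gels was the largest of any group as counted, but not after correction (0.13, 0.15 and 0.38). Pcna, the sliding clamp and a common marker of S phase, was equal on TCP and GelMA, at CPM 101.2 and 101.7, and stood at 157.2 on GelMA-PSS. Its log2 ratio over GelMA was 0.62 ± 0.03, and 0.18 when corrected.

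Of the 5 clamp loader subunits, Rfc1, the large subunit, was highest on GelMA (47.3, 53.9 and 48.8), while the small subunits Rfc2 to Rfc5 were all highest on GelMA-PSS. This contrast was not kept by the correction, which put all 5 highest on GelMA-PSS. Rfc1 was then at 0.03 for GelMA-PSS over GelMA, which is within counting error. With the shortest transcript of each gene, Rfc5 was at -0.008 for GelMA-PSS over GelMA. That transcript has 772 bases, and whether it holds the whole coding sequence was not checked. Rfc4 was at CPM 9.49, 10.8 and 18.3, Rfc3 at 17.1, 17.3 and 25.4, and Rfc5 at 11.8, 12.8 and 16.7. Rfc2 was at 30.5, 29.1 and 44.2, with a ratio of 0.59 over GelMA that became 0.83 with the 4995-base transcript used for its correction. The CPM of Rfc1 relative to Rfc4 was 4.99 on TCP, 4.98 on GelMA and 2.67 on GelMA-PSS, and the log2 change of this ratio between the gels was -0.90 as counted and -0.12 when corrected.

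RPA, which coats single-stranded DNA, has a large, a middle and a small subunit, and their genes differed in turn. Rpa1 was at CPM 59.6, 69.9 and 71.0, Rpa2 at 22.0, 21.4 and 26.3, and Rpa3 (chr6:8255936-8259173, minus strand) at 9.33, 13.0 and 24.1. Only Rpa3 passed 2-fold, at 1.28 ± 0.09 over TCP as counted and 0.60 when corrected. It has the shortest transcript of the set, and its ratio over GelMA was 0.85 as counted and 0.05 when corrected. The Rpa1 to Rpa3 ratio was 6.39, 5.39 and 2.95, and its log2 change between GelMA-PSS and TCP was -1.12 as counted and -0.16 when corrected.

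Polymerase, primase and Okazaki fragment genes had medians of 0.22, 0.20 and 0.39 (corrected 0.28, 0.16 and 0.48), and 8 of 10 were highest on GelMA-PSS. The catalytic subunits of polymerases epsilon and alpha were those that were not. Pole was at CPM 10.6 on TCP, 17.8 on GelMA and 11.6 on GelMA-PSS, and Pola1 at 11.5, 17.4 and 13.7. Pole had the second largest excess on GelMA over TCP after Cdc6, at 0.69 ± 0.10, and the lowest ratio of GelMA-PSS over GelMA, at -0.58 ± 0.09. Its transcript is the longest of the set, and -0.58 became -0.06 on correction. With the shortest transcript of Pole, at 747 bases, the corrected ratio was -0.96, so this value depends on the choice of transcript. Whether that transcript holds the whole coding sequence was not checked, so -0.96 may rest on a length that does not apply.

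The partners of these subunits showed the opposite. Pole2, the second subunit of polymerase epsilon, was at 6.44, 8.69 and 13.3, and Prim1, the catalytic primase subunit bound to Pola1, at 11.8, 13.9 and 22.4. The Pole to Pole2 ratio was 1.65, 2.05 and 0.870 and the Pola1 to Prim1 ratio 0.972, 1.25 and 0.609. After correction the log2 change of these ratios between GelMA-PSS and GelMA was -0.22 in place of -1.24 and -0.36 in place of -1.04. The value of -0.22 rests on the transcript used for Pole. Pold1, the catalytic subunit of polymerase delta, was at 12.9, 15.1 and 16.5, and the nick-sealing ligase Lig1 at 21.5, 26.9 and 32.5, both in the rising order. The large primase subunit Prim2 was at 9.13, 10.7 and 15.5, and Pold2, the second subunit of polymerase delta, at 22.8, 23.9 and 31.6. The flap endonuclease Fen1 differed less (12.6, 13.3 and 14.8), as did Pola2 (24.9, 25.05 and 27.4).

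The nucleotide supply genes had medians of 0.20, 0.11 and 0.23 (corrected 0.22, 0.07 and 0.17), and differed widely among themselves. The ribonucleotide reductase subunits, which make deoxynucleotides from ribonucleotides, were both among the 4 highest per kilobase in every library. Rrm2, the S phase subunit, was at CPM 163, 152 and 164, and Rrm1, the large subunit, at 130, 112 and 116. As counted, Rrm1 was the only gene highest on TCP. Its log2 ratio over TCP was -0.22 ± 0.04 for GelMA and -0.17 ± 0.03 for GelMA-PSS, and -0.21 and -0.16 after correction. Corrected, Rrm2 was highest on TCP too, at -0.05 for GelMA and -0.20 for GelMA-PSS. Per kilobase, Rrm2 led the set on TCP and GelMA, with CPM 74.5 and 69.5, and Pcna led on GelMA-PSS, with 104 against 74.8 for Rrm2.

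Dut (chr2:125247190-125258608, plus strand), the dUTPase that keeps uracil out of DNA, was at CPM 23.2, 28.3 and 53.6. GelMA-PSS stood apart, at 0.90 ± 0.06 over GelMA and 1.17 ± 0.06 over TCP, and at 0.62 and 0.96 after correction. Tk1, the salvage kinase for thymidine, was at 16.2, 22.3 and 30.7, with a log2 ratio of 0.44 both for GelMA over TCP and for GelMA-PSS over GelMA, and of 0.49 and 0.11 after correction. Tyms, which makes thymidylate from deoxyuridylate, was at 30.5, 35.3 and 35.9.

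Among the G1/S regulators, which had medians of 0.25, 0.15 and 0.31 (corrected 0.26, 0.03 and 0.30), the E2F activators took different orders, and so to a lesser degree did the E-type cyclins that switch on CDK2. Ccne1 was at CPM 10.1, 11.5 and 18.02, a log2 ratio of 0.60 ± 0.09 over GelMA and 0.38 when corrected. Ccne2 stood nearly level, at 10.8, 10.7 and 12.3. E2f1 took the rising order (27.2, 34.4 and 37.1), whereas E2f2 was at 64.1, 80.7 and 60.4 and was, as counted, the only gene lowest on GelMA-PSS. The E2f2 ratio of GelMA-PSS over TCP was -0.08 as counted and 0.15 when corrected.

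The chromatin genes had the largest group median for GelMA over TCP, at 0.50 over 3 genes (corrected 0.46). Uhrf1, which helps carry DNA methylation through replication, was at CPM 24.2, 37.5 and 39.4, so that nearly all of its difference lay between TCP and GelMA (0.61 ± 0.07, then 0.07 ± 0.06). Of the subunits of the histone chaperone CAF-1, Chaf1a was at 14.5, 21.0 and 19.2, and Chaf1b at 6.31, 8.76 and 10.5. Both also had their larger ratio between TCP and GelMA, at 0.50 and 0.42.

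The 9 genes with an E2F motif in the window had a median log2 ratio of 0.44 for GelMA over TCP, against 0.21 for the 31 genes with a window and no motif. For GelMA-PSS over GelMA the order was the other way, at 0.07 against 0.20, and corrected medians were 0.06 against 0.12. The printed promoters belong to genes with ratios over TCP on GelMA of 0.40 (Mcm6), 0.61 (Uhrf1), 0.47 (Mcm5) and 0.56 (Pola1). The ranges of both sets overlapped, from 0.02 to 0.71 with a motif and from -0.22 to 0.50 without.

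The other 60 genes of the pathway, listed by function with earlier results of these data known, all passed the filter. The list mixes replication factors with cell cycle regulators, among them CDK inhibitors, Rb1 and the repressor E2f8, and is not a set of replication genes alone. The 60 genes had medians of 0.10, 0.02 and 0.29, with 41, 32 and 43 of 60 higher against 48.3%, 53.1% and 52.8% of all genes. None was past 2-fold in any comparison. Between the gels, their count and median as counted were close to those of all genes, at 53.1% and 0.03. The corrected medians of the 60 genes were 0.10, 0.06 and 0.20, against 0.26, 0.11 and 0.44 for the 49 genes above, so the gap between the gels was smaller when corrected. On GelMA-PSS 31 of 60 stood highest (background 45.3%) and 16 of 60 lowest (background 39.3%), where 40 and 1 of the 49 genes above did. The lowest ratios of GelMA-PSS over TCP were those of Rb1, the retinoblastoma protein, at CPM 207, 141 and 113, and of the repressor E2f8, at 45.2, 38.9 and 24.8. The CDK inhibitor Cdkn1a was at 1480, 1204 and 1186. The highest ratio was that of Fbxo5, an inhibitor of the anaphase-promoting complex, at 5.31, 6.75 and 10.99, and cyclin A2 (Ccna2) was at 31.2, 39.6 and 51.6. These genes were named after their values were seen, as were the ratios between pairs of subunits above.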

How the data were processed

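Total RNA of c2c12 cells on 3 substrates was sequenced as 101 bp strand-specific paired-end reads, 1 library per substrate. The library kit is TruSeq in the methods and SMARTER in the labels. The authors deposited raw read counts per gene symbol. The submitters' processing notes name TopHat, edgeR, hg19 and mm10 without saying which step used which, and the counting tool is not given in the sources used here.

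Symbols given on several lines were summed. Counts were converted to CPM with TMM factors (1.02, 1.04 and 0.943, edgeR 4.0.16, R 4.3.3), where 3 counts correspond to CPM 0.0246, 0.0330 and 0.0166. The filter kept genes that reached CPM 1 in any library, and ratios were log2(CPM + 1) differences, computed in Python 3.11.15 with pandas 2.3.3. Intervals are exact Poisson (levels) or from counting error (ratios) at 95%, from 0.026 to 0.18 wide on each side, and would be too narrow had the mates of a pair been counted separately. The methods use FPKM and a fold threshold. Lengths, GC content and gene coordinates are from GENCODE vM21 (GRCm38). Transcripts were ranked by membership of the basic set and by recorded coding length, and the longest of those tied was used. The alternative was the shortest of those tied. For Pole these were 7163 and 747 bases, so the recorded coding length did not separate them. The loess span was 0.3 (statsmodels 0.14.6). RefSeq promoters were matched by symbol. At most 6 genes with an E2F motif were taken for printing, those past 2-fold first and then by mean CPM. Of these, Mcm7 and Rfc3 are not shown because their windows overlap annotated exons. Gins3, Cdc6 and Orc1, whose windows also overlap exons, fell outside that limit. The scripts were checked on simulated counts.

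Every gene is named in its role group, with full values for genes past 2-fold and the highest and lowest of each group on GelMA-PSS against the mean of the controls. Members and lists were chosen with earlier results of these data known.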

Additional observations from a re-analysis of the deposited data

How the results depend on the processing

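No paired analysis was possible because each substrate has 1 library, and for the same reason no replicate was left out.

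Scaling decided the sign of the median of GelMA-PSS over GelMA. TPM-like values without TMM factors mainly rescale whole libraries, since a gene's length cancels from its ratio apart from the 1 added before logs. They shifted the median of all genes by -0.40 over GelMA and -0.35 over TCP, to -0.37 and -0.32. The replication genes then had medians of -0.23 and 0.0937, with 1 gene 2-fold higher over TCP and 0 over GelMA, 14 highest and 19 lowest on GelMA-PSS. Against the median of all genes, 37 and 45 of 49 were still higher, compared with 39 and 46 as reported. Library totals without TMM factors shifted all genes by -0.13 and -0.10, and gave medians of 0.0671 and 0.39, 0 genes 2-fold higher over GelMA and 4 lowest on GelMA-PSS, with 39 and 46 above the median of all genes. A pseudocount of 5 gave a median of 0.39 over TCP and 0 genes 2-fold higher over GelMA.

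The length and GC correction gave a median of 0.11 over GelMA, 1 gene 2-fold higher over TCP and 3 lowest on GelMA-PSS (Orc6, Rrm2 and Ccne2). With the shortest transcript of each gene, an alternative chosen after seeing the data, 2 were 2-fold higher over TCP and 4 lowest. A 1.5-fold threshold gave 3 genes higher on GelMA than on TCP, 10 on GelMA-PSS over GelMA and 17 over TCP.

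Of 42 single ratios, none changed sign with median-of-ratios scaling (DESeq2 1.42.0), no filter or the larger pseudocount, 3 did with library totals, 4 with the correction, 6 with the shortest transcript and 8 with TPM-like values. The cause of these changes was not tested. With 1 library per substrate, depth limits only the counting error.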
